A study of Populus tremula x Populus alba with 7 samples.

Results

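Isolated PtrARF5a-only peaks are PtrARF5a ChIP-seq peaks on the 19 chromosomes that shared no base pair with a peak of the other 5 TF lists, and whose summit had no other such PtrARF5a-only summit within 10000 bp. They were selected by position among peaks already called in the PtrARF5a library, so fold enrichment, −log10 q and width, which come from the contrast that made those calls, are given as descriptions with no test. The rule found 2469 such peaks. They made up 62.8% of the 3931 PtrARF5a-only chromosome peaks, 45.7% of the 5397 peaks of the PtrARF5a list and 26.1% of the 9442 peaks of all 6 lists. The other PtrARF5a chromosome peaks were 1462 clustered PtrARF5a-only peaks, which had such a neighbour within 10000 bp, and 1337 shared peaks, which overlapped a peak of another TF.

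The study expressed 6 TFs of poplar (PtrARF5a, PtrC2H2ZF1, PtrC2H2ZF2, PtrBLH, PtrNAC127 and PtrCORONA) that had been picked for binding the promoter of PtrPARVUS2, a putative hemicellulose gene. Each was fused to GFP, driven by the constitutive CaMV35S promoter and expressed transiently in leaves of Populus tremula × alba after Agrobacterium infiltration. Leaf chromatin was cross-linked with 1% formaldehyde for 15 min and precipitated with a GFP antibody. The same type of chromatin without antibody, called the input, was the control. There was 1 library per TF, so no replicate error exists for any value below, and a difference between TFs cannot be told apart from a difference between libraries. The series held no GFP antibody precipitation from leaves without a TF fusion, so signal from the antibody itself could not be told apart. The peaks report enrichment over input in leaf that expressed an overproduced fusion protein, not where the native protein sits in xylem.

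Auxin response factors (ARFs) are plant TFs that bind short auxin response elements through an N-terminal DNA-binding domain. At low auxin, Aux/IAA proteins bind ARFs and hold target genes down, and auxin triggers the destruction of these repressors. In Arabidopsis, ARF5 is the activator MONOPTEROS, which is required for embryo patterning and vascular development. The sequence under the peaks and the genes around them were not analysed here, and each site is given by its position in the deposited lists, counted from 1.

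The isolated peaks were modest and narrow. Their median fold enrichment over background was 6.13 (quartiles 5.07 and 7.49, range 1.33 to 21.4), against 6.16 in clustered PtrARF5a-only peaks and 11.2 in shared PtrARF5a peaks. Their median −log10 q was 6.83, the same value as in clustered peaks, against 22.4 in shared peaks. Their median width was 216 bp, against 221 bp in clustered and 315 bp in shared peaks. A −log10 q of 20 or more was reached by 56 of the 2469 isolated peaks (2.27%, exact 95% binomial interval 1.72 to 2.94%), by 2.94% of clustered peaks and by 54.3% of shared peaks. The smallest width of the list, 167 bp, was held by 384 isolated peaks (15.6%), by 13.3% of clustered peaks and by 1.94% of shared peaks. The summit lay between 1/3 and 2/3 of the peak width in 69.9% of isolated, 68.9% of clustered and 77.7% of shared peaks. On each of these measures the isolated peaks lay close to the clustered ones and apart from the shared ones. The intervals of all shares cover counting error only.

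The number of DNA fragments behind each peak could be read back from the deposited values. The caller's fold enrichment is the fragment number at the summit plus 1, divided by the expected background plus 1, and its p-value is the Poisson chance of more fragments than that number. For all 5397 PtrARF5a peaks a whole number of fragments gave both values at once, to within 0.002 on the −log10 p scale, and for 17 isolated peaks more than 1 number came that close and the closest was taken. The isolated peaks had a median of 12 fragments at the summit (quartiles 9 and 15). Of the 2469 isolated peaks, 1454 (58.9%) had 9 to 15 fragments, 230 had 20 or more and 2 had 40 or more. Clustered peaks also had a median of 12 fragments, and shared peaks had a median of 26. Of the shared peaks, 499 (37.3%) had 40 or more. A count of 12 has an exact 95% Poisson interval of 6.20 to 21.0, and the intervals of 2097 isolated peaks (84.9%) held 12 while those of 372 did not.

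**Figure D1:**
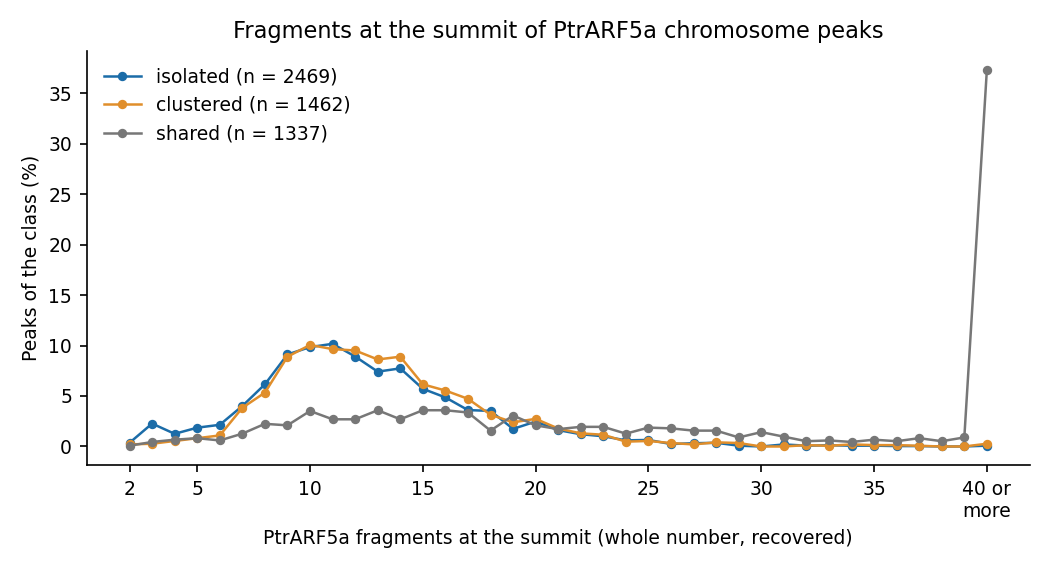
Percentage of peaks (vertical axis) with each whole number of PtrARF5a fragments at the summit (horizontal axis, with 40 or more in 1 point), for isolated, clustered and shared PtrARF5a peaks on chromosomes. The curves of isolated and clustered peaks nearly coincide, with medians of 12, while 37.3% of shared peaks lie at 40 or more.

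The share of isolated peaks was lower at higher fragment numbers. Among the 196 PtrARF5a chromosome peaks with 2 to 5 fragments, 142 were isolated (72.4%, exact 95% binomial interval 65.6 to 78.6%). At 10 to 14 fragments 1088 of 1974 peaks were isolated (55.1%), and at 20 to 29 fragments 212 of 571 (37.1%). At 30 to 49 fragments 17 of 194 peaks were isolated (8.76%), and at 50 or more 1 of 437 (0.229%), while 99.1% of this band was shared. PtrARF5a sites with 50 or more fragments were thus nearly all also called for another TF. Width followed the fragments within the isolated peaks, with medians of 167, 210 and 279.5 bp at 2 to 5, 10 to 14 and 20 to 29 fragments.

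The expected background of each isolated peak took only a few kinds of value. MACS2 uses the largest of the input at the summit, in wider local windows and over the whole genome. For 1214 isolated peaks (49.2%) the background was a whole number of input fragments at the summit, which was 1 fragment for 524 peaks, 2 for 426 and 3 or more for 264. For 1156 (46.8%) it came from a local window of 1000 or 10000 bp, and for 99 (4.01%) it was the genome-wide floor of 0.0661 fragments. In clustered peaks the floor applied to 1.16%, and in shared peaks to 3.29%. A background of 3 or more input fragments at the summit was held by 10.7% of isolated, 12.7% of clustered and 34.4% of shared peaks. After scaling to the PtrARF5a library 1 input fragment counted as 0.879, which was also the median background of isolated peaks. The background of 768 isolated peaks (31.1%) was below that. It came from a local window or the genome-wide floor, where input over a longer stretch is scaled down. A value below 1 input fragment is thus an expected rate at the summit, not a count of input fragments.

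Fold enrichment of isolated peaks therefore depended on the input as well as on the PtrARF5a fragments. At the median of 12 fragments, the fold enrichment was 6.92 over 1 input fragment (59 peaks), 4.71 over 2 (40 peaks) and 3.57 over 3 (18 peaks), and ran from 4.25 to 11.2 over local windows (103 peaks). The corresponding −log10 q was 7.93, 4.63 and 2.90, and 3.93 to 16.9 over local windows. Across the 2469 isolated peaks, which share 1 library and 1 input, Spearman's rho was 0.46 between fold enrichment and fragments and 0.94 between fold enrichment and −log10 q. Because the values come from small whole numbers, the isolated peaks held 587 distinct sets of fold enrichment, p and q. The most frequent set, with 11 fragments, a fold enrichment of 6.38 with a −log10 q of 6.83, belonged to 76 peaks.

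**Figure D2:**
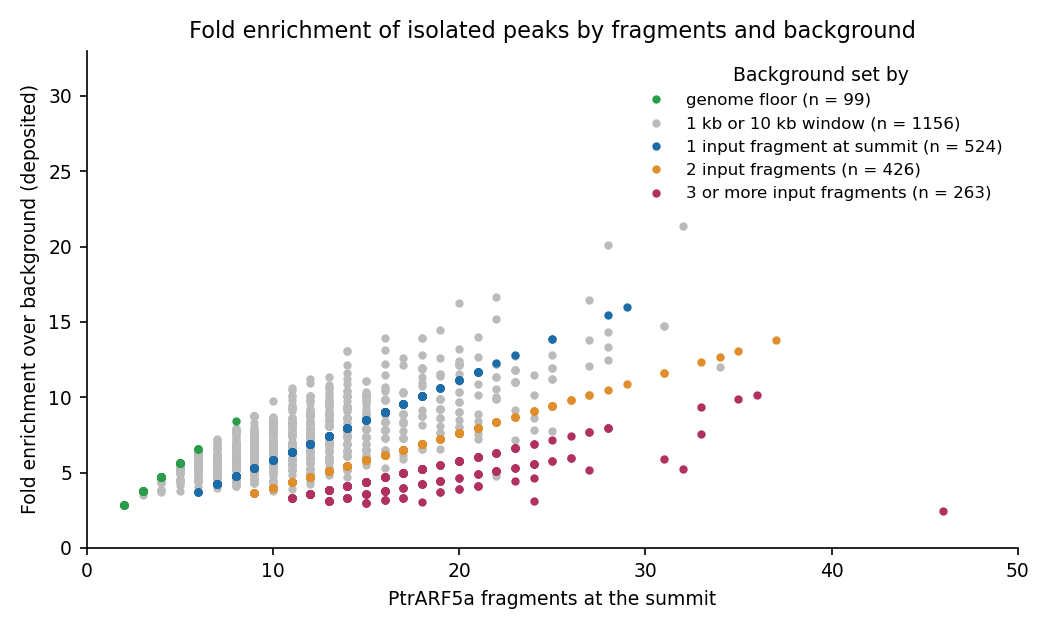
Deposited fold enrichment (vertical axis) against PtrARF5a fragments at the summit (horizontal axis, up to 50) for isolated peaks, coloured by what set the background. Peaks over the same whole number of input fragments fall on 1 straight line, so 12 fragments over 1, 2 or 3 input fragments give a fold of 6.92, 4.71 or 3.57. The class of 3 or more holds several such lines. The isolated peak with 200 fragments is outside the plotted range.

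The strongest isolated peak, ranked by −log10 q, was found on chromosome 5 at 8986725 to 8987011, with 32 fragments at its summit (exact 95% Poisson interval 21.9 to 45.2) over a background of 0.543. Its fold enrichment was 21.4 and its −log10 q 42.4. The nearest peak of another TF, of PtrNAC127, was 150 kb away. The next was on chromosome 2 at 130930 to 131242, with 28 fragments over 0.441, a fold enrichment of 20.1 with a −log10 q of 38.0, and its nearest other-TF peak was 403 kb away. Both had a background below 1 input fragment, and their folds were above those of isolated peaks with more fragments. The third, on chromosome 2 at 1097455 to 1097777, had the most fragments of the 10 strongest, 37, over 2 input fragments, and a fold enrichment of 13.8.

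A pair of strong isolated peaks on different chromosomes had identical values. Chromosome 5 at 4104752 to 4105087 and chromosome 13 at 1897623 to 1897969 each had 31 fragments over a background of 1.17, a fold enrichment of 14.7 with a −log10 q of 30.3. They differed in surroundings, with the next PtrARF5a-only summit 75.2 kb away for the site on chromosome 5 and 10.6 kb away for the one on chromosome 13. The isolated peak on chromosome 9 at 11737087 to 11737468 was number 10 by −log10 q (28.8) with 22 fragments, since its background was 0.382. The isolated peak on chromosome 3 at 9057800 to 9058093 was number 5 by fold enrichment (16.2) with 20 fragments over 0.294.

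The strongest isolated peak of each of the 19 chromosomes had a −log10 q between 18.0 (chromosome 18, from 1532119 to 1532330, with 20 fragments) and 42.4 (chromosome 5). No chromosome was without an isolated peak of 18 or more fragments at its strongest site. The widest isolated peaks were not the strongest. The widest, on chromosome 3 at 17519754 to 17520483, was 730 bp wide with 17 fragments and a fold enrichment of 4.95, and its summit lay 645 bp from its start. The second, on chromosome 1 at 29573372 to 29574100, was 729 bp wide with 22 fragments and a fold enrichment of 8.34, and its summit lay 618 bp from its start. In both the summit sat toward the right end.

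At the weak end, 1 isolated peak stood apart from the rest. On chromosome 2 at 18297728 to 18297936, 200 fragments stood over a background of 150, which is 171 input fragments, and gave the lowest fold enrichment (1.33) and −log10 q (2.02) of the 2469. The isolated peak with the next highest fragment number had 46, over 21 input fragments. The peak of 200 fragments thus lay at a site with many input fragments, 45.7 kb from a PtrC2H2ZF2 peak with a −log10 q of 503. The following weakest peaks, on chromosome 3 at 5242915 to 5243174 and on chromosome 5 at 15318139 to 15318305, had 2 fragments each over the genome-wide floor. A count of 2 has a 95% Poisson interval of 0.242 to 7.22. Of the 99 isolated peaks at the floor, 55 had 3 fragments and 59 had the smallest width of 167 bp.

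The same arithmetic gave the depth of each library relative to the common input, which bears on what the other lists could have called. Relative to the PtrARF5a library, the depth was 0.265 in PtrC2H2ZF1, 0.238 in PtrC2H2ZF2, 0.600 in PtrBLH, 0.888 in PtrCORONA and 1.22 in PtrNAC127. The values for PtrNAC127 rest on 355 of its 681 peaks, because there the caller had scaled the ChIP library instead of the input. The smallest peak width, which was taken as the fragment length the caller used, was 167 bp for PtrARF5a and 284 to 297 bp for the other 5 lists. The lists' smallest −log10 p was 4.32 for PtrARF5a, 7.30 for PtrC2H2ZF1, 6.73 for PtrC2H2ZF2, 4.83 for PtrBLH, 4.75 for PtrCORONA and 5.86 for PtrNAC127. Their smallest −log10 q was 4.26 for PtrC2H2ZF1, 3.71 for PtrC2H2ZF2 and 2.90 for PtrNAC127, against 2.02 for PtrARF5a and 2.08 for PtrBLH and PtrCORONA.

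Scaled to those depths, most isolated peaks reached the smallest −log10 p of the deeper libraries' lists and few that of the zinc finger lists. That threshold is the weakest peak in each list, which need not be the caller's cutoff, so a peak below it could still have been called. The scaling is arithmetic that supposes the same occupancy for the other TF, not a measurement of that TF. At the depth of PtrCORONA, 2290 isolated peaks (92.8%) kept a −log10 p at or above the smallest of that list, against 94.8% of all 5268 PtrARF5a chromosome peaks. At the depth of PtrNAC127 2299 did (93.1%), against 95.3% of all, and at that of PtrBLH 1660 (67.2%), against 73.6% of all. At the depth of PtrC2H2ZF1 50 isolated peaks did (2.03%), against 15.1% of all, and at that of PtrC2H2ZF2 49 (1.98%), against 15.3% of all. For PtrNAC127 the full depth of 1.22 was used, although its caller had scaled that library down to the input. The PtrNAC127 counts may therefore be too high. All 10 strongest isolated peaks, ranked by −log10 q from the same counts, reached the smallest −log10 p of each of the 5 lists. The scaled peaks had all been called in PtrARF5a, whose list starts at a −log10 p of 4.32. A high share at depths of 0.888 and 1.22 was therefore largely set in advance. The scaling added no counting error. Isolated peaks had a median of 3.18 scaled fragments at the depth of PtrC2H2ZF1 and 10.7 at that of PtrCORONA. Scaled fragments were rounded down, which can remove a larger part of a small number. In all, 30 isolated peaks (1.22%) reached all 5 thresholds, against 14.0% of all PtrARF5a chromosome peaks, and 70 (2.84%) reached none, against 2.16% of all. For comparison, 74.6% of all PtrARF5a chromosome peaks overlapped no peak of another list.

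The window width moved these counts. With the background also scaled to the wider window of the other lists, an alternative chosen after the data were seen, 1702 isolated peaks (68.9%) reached the PtrCORONA threshold, against 75.0% of all PtrARF5a chromosome peaks. The PtrNAC127 threshold was reached by 1749 isolated peaks (70.8%), against 76.4% of all, counts that may again be too high. The PtrBLH threshold was reached by 987 of the 2469, against 52.0% of all. The PtrC2H2ZF1 threshold was reached by 16 isolated peaks (0.648%), against 11.8% of all, and the PtrC2H2ZF2 threshold by 12 (0.486%), against 11.7% of all. All 5 were reached by 11 isolated peaks (0.446%), against 11.5% of all, and none by 710 (28.8%), against 23.3% of all. Under both scalings, at most 50 isolated peaks reached the threshold of each zinc finger list taken alone. At least 1702 reached that of PtrCORONA and 1749 that of PtrNAC127. Whether the other TFs had weaker signal at these sites was not tested.

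**Figure D3:**
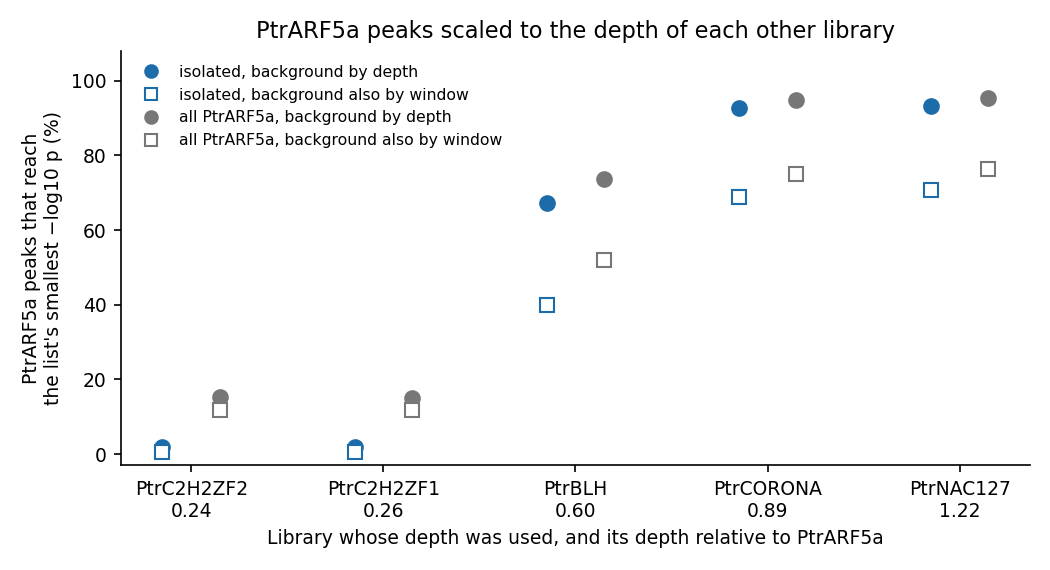
Percentage of isolated PtrARF5a-only peaks (left of each pair) and of all PtrARF5a chromosome peaks (right) that reach the smallest −log10 p of each other list when fragments and background are scaled to that library's depth (number under each name, relative to PtrARF5a). Filled circles scale the background by depth and open squares also by window width. With depth alone, 92.8% of isolated peaks reach the value of PtrCORONA and 2.03% that of PtrC2H2ZF1.

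Most isolated peaks were far from any peak of another TF. The median gap to the nearest one was 79.5 kb (quartiles 30.3 and 171.9 kb), against 67.9 kb for clustered PtrARF5a-only peaks. Within 10000 bp of another TF's peak lay 271 isolated peaks (11.0%), against 15.7% of clustered peaks, while 1059 isolated peaks were more than 100000 bp away. By list, the median gap of isolated peaks was 105 kb to PtrCORONA, 121 kb to PtrBLH, 212 kb to PtrNAC127, 258 kb to PtrC2H2ZF2 and 275 kb to PtrC2H2ZF1. The order is that of the number of peaks on chromosomes, 1109, 979, 636, 567 and 535. The nearest peak belonged to PtrCORONA for 948 isolated peaks and to PtrBLH for 635.

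Median fragments and fold enrichment of isolated peaks differed little with nearness to another TF, while a low background was more frequent far from one. Those within 10000 bp of another TF's peak had a median of 12 fragments and a fold enrichment of 5.92, and those over 100000 bp away had 11 fragments and 6.05. The share at the genome-wide background floor was 1.48% (4 of 271, exact 95% binomial interval 0.404 to 3.74%) among the near ones and 6.04% (64 of 1059, 4.68 to 7.65%) among the far ones. A background below 1 input fragment was held by 23.6% of the near ones and 33.3% of the far ones. Across isolated peaks, Spearman's rho between fragments and the gap was -0.064.

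**Figure D4:**
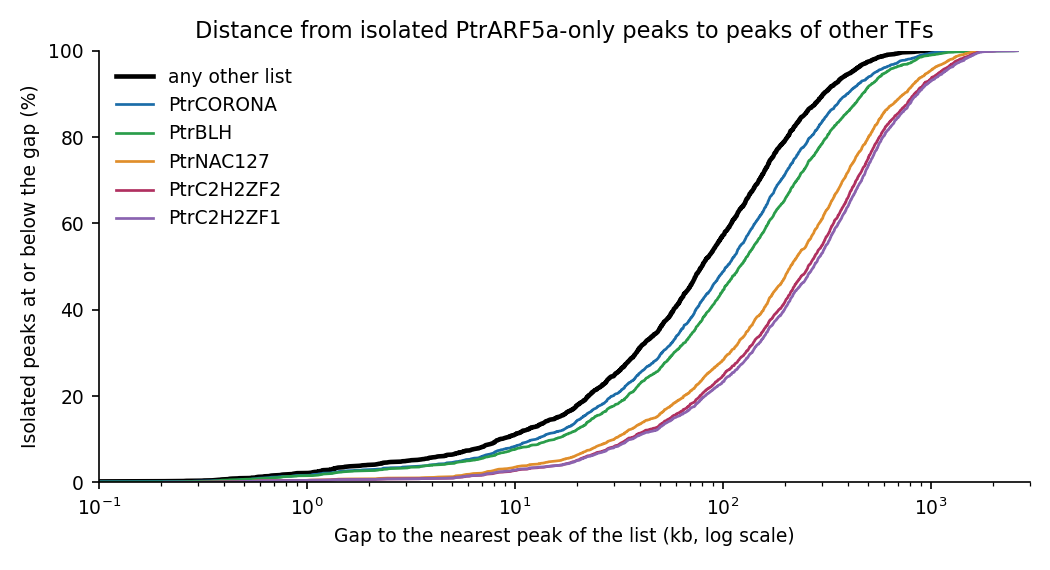
Cumulative percentage of the 2469 isolated PtrARF5a-only peaks (vertical axis) whose gap to the nearest peak of each other list is at or below the value on the horizontal axis (kb, log scale). The median gap is 79.5 kb to any other list, 105 kb to PtrCORONA and 275 kb to PtrC2H2ZF1.

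A few isolated peaks missed an overlap by a short distance. Within 500 bp of another TF's peak lay 24 of them. On chromosome 5 at 19040776 to 19040942, an isolated peak with 3 fragments was 4 bp from a PtrCORONA peak at 19040478 to 19040771. On chromosome 6 at 1027954 to 1028209, one with 11 fragments was 9 bp from a PtrCORONA peak, and on chromosome 8 at 11228604 to 11228896, one with 14 fragments was 45 bp from a PtrBLH peak. By the rule these count as PtrARF5a-only. At the far end, the peak on chromosome 19 at 185481 to 185647, with 5 fragments, was 1295 kb from the nearest other-TF peak. Of the 5 farthest isolated peaks, 3 lay on chromosome 2. They were at 20228331 to 20228498 (4 fragments), at 20434990 to 20435214 (17 fragments) and at 19248424 to 19248590 (11 fragments).

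Isolated refers to other PtrARF5a-only summits only. A shared PtrARF5a peak lay within 10000 bp of 257 isolated peaks (10.4%), against 14.2% of clustered peaks, and 2217 of the 2469 had no PtrARF5a summit of any kind within that distance. The median distance from an isolated summit to the next PtrARF5a-only summit was 39.2 kb. It exceeded 20000 bp for 1926 isolated peaks, 100000 bp for 437 and 1000000 bp for 4. The most remote was on chromosome 8 at 19101556 to 19101780, with 5 fragments and 1950 kb to the next. It was the last peak of any list on that chromosome, so this distance is to 1 side only. The second most remote was on chromosome 1 at 18895534 to 18895831, with 10 fragments and 1416 kb to the next.

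The isolation distance cut through a continuous range. Just inside it were isolated peaks on chromosome 1 at 4850898 to 4851232 (10094 bp to the next summit, 24 fragments) and on chromosome 18 at 1584113 to 1584312 and at 1594130 to 1594395, which were 10110 bp from each other and had 11 and 16 fragments. Just outside it were clustered peaks on chromosome 5 at 20675193 to 20675556 (9998 bp, 8 fragments), on chromosome 15 at 5576762 to 5576928 (9994 bp, 9 fragments) and on chromosome 18 at 577404 to 577719 (9983 bp, 14 fragments). Their fragment numbers overlapped on both sides of the limit.

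Isolated peaks were found on all 19 chromosomes, at 6.30 per Mb over 392 Mb, where the length of a chromosome was taken as the largest peak end in the 6 lists. Chromosome 8 had the most per Mb (175 peaks, 9.16 per Mb) and chromosome 19 the fewest (60 peaks, 3.82 per Mb), and chromosome 1 had the largest number, 302. The isolated share of PtrARF5a-only peaks ran from 47.8% on chromosome 14 (120 of 251) to 74.7% on chromosome 17 (71 of 95), a share that the spacing rule itself sets. Chromosome 14 was the only one of the 19 with more clustered than isolated peaks per Mb, at 6.44 isolated against 7.03 clustered. Median fold enrichment per chromosome stayed between 5.74 and 6.47, and median fragments between 10 and 12.

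**Figure D5:**
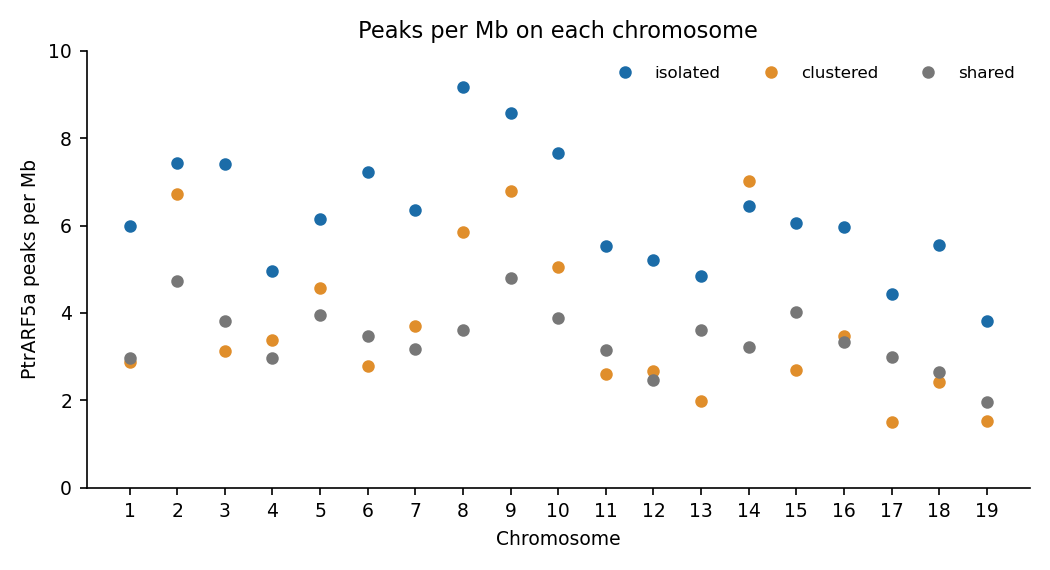
Isolated, clustered and shared PtrARF5a peaks per Mb (vertical axis) on each of the 19 chromosomes (horizontal axis). Isolated peaks range from 3.82 per Mb on chromosome 19 to 9.16 on chromosome 8, and lie below clustered peaks only on chromosome 14.

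Along the chromosomes isolated peaks were spread widely. Of 383 full 1 Mb bins, 17 held no isolated peak, the median bin held 6 (quartiles 3 and 9) and 90 bins held 10 or more. The densest bin, on chromosome 10 at 18000001 to 19000000, held 18 isolated peaks beside 12 clustered and 5 shared ones. Over the bins, which share 1 library and 1 input, Spearman's rho of isolated with clustered peaks was 0.53 and with shared peaks 0.42. Over the 19 chromosomes the rho of peaks per Mb was 0.82 with clustered and 0.72 with shared peaks. The outer 40% of each chromosome (20% at either end) held 44.6% of isolated peaks (exact 95% binomial interval 42.7 to 46.6%), against 45.6% of clustered and 39.9% of shared peaks, and the middle 20% held 17.5%, 18.7% and 18.3% of isolated, clustered and shared peaks.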

How the data were processed

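ChIP-seq libraries of 6 TF-GFP fusions and 1 input were made from poplar leaf. The authors trimmed paired-end reads with Trimmomatic, aligned them to the Populus tremula × alba genome with Bowtie2, used SAMtools to remove duplicates and low mapping quality, and ran MACS2 on each library (the submitters' processing notes name version 2.1.0). The deposited lists give positions and summits, a whole-number score (not used), the fold enrichment as a ratio to background, and the −log10 of the p-value and q-value, as the authors' caller wrote them.

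Overlap was at least 1 bp. Fragments, background and depth relative to the input were recovered from fold enrichment and p (tolerance 0.002), assuming that the caller added 1 to both sides of the ratio. The code was tested on simulated peaks. Scaled fragments were rounded down before p was computed. The number of reads kept after filtering in each library was not stated in the sources read. Shares have exact 95% binomial and counts exact 95% Poisson intervals, and no tests were made, as these values come from the contrast that called the peaks and each TF has 1 library. The members, lists and measures were chosen with earlier results of these data known. Named regions are, or are among, the 10 with the largest −log10 q, the 5 with the largest fold enrichment, the 5 widest, the strongest per chromosome, the 3 on each side of the isolation distance, the 3 weakest, the 5 nearest to and 5 farthest from another list, and the 5 most remote. The densest bin and the peak with 46 fragments were named after their values were seen. Computations ran in Python 3.11.15 with scipy 1.17.1, pandas 2.3.3 and numpy 2.4.6, and plots were drawn with matplotlib 3.10.9. A genome and annotation were not used here.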

Additional observations from a re-analysis of the deposited data

How the results depend on the processing

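No paired analysis was possible because each TF has 1 library. The number of isolated peaks stayed within 1.5 times of 2469 under every alternative run except when all lists were restricted to a −log10 q of 10 or more, which left 1090, of which 574 were among the 2469. The isolated share of PtrARF5a-only peaks moved from 62.8% to 74.2% at an isolation distance of 5000 bp, 49.0% at 20000 bp, 56.4% when any PtrARF5a summit ended isolation, 69.5% and 83.9% with all lists at a −log10 q of 5 and 10 or more, 70.2% with PtrARF5a alone at 5 or more, 61.2% without the PtrBLH list and 60.9% without the PtrCORONA list. Median fold enrichment moved from 6.13 to 6.90 and 9.04 with all lists at 5 and 10 or more and to 6.89 with PtrARF5a alone at 5 or more, and median width from 216 bp to 223, 264 and 221 bp. These follow from the construction, since weaker peaks were removed. The median summit distance to another list moved from 79968 bp to 94439 bp with any summit, 92245 and 152554 bp at the stricter limits, 101047 bp without PtrBLH and 104107 bp without PtrCORONA. The zinc finger lists and PtrNAC127 could be left out, peaks within 500 bp counted as shared, or 50% coverage required, without moving a value beyond its interval. Scaling the background by window width, added after the data were seen, left 987 isolated peaks at the PtrBLH threshold (1660 by depth alone), against 52.0% of all PtrARF5a chromosome peaks, 16 at that of PtrC2H2ZF1 (50), against 11.8% of all, and 12 at that of PtrC2H2ZF2 (49), against 11.7% of all. It left 11 that reached all 5 thresholds (30), against 11.5% of all, and 710 that reached none (70), against 23.3% of all. Chromosome lengths from a genome and the motif shares were not run. Counting error limits ranking by fragments, as the median of 12 has an interval of 6.20 to 21.0.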
